A study of Mus musculus with 13 samples.

Results

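Amino acid transporter genes were followed in sorted mouse thymocytes, as the 10 genes Slc7a11, Slc7a8, Slc7a5, Slc7a6, Slc7a7, Slc3a2, Slc1a5, Slc38a1, Slc38a2 and Slc38a9. Members were chosen by symbol, with earlier results of these data known. All 10 were found among the 19752 genes measured, each through its brightest probe set with a single annotated symbol. The study compared mice labelled as conditional knockout (cKO) for Sox4, a transcription factor gene of the HMG box family, with mice labelled wild type (WT), all 2 weeks old and of mixed sex. V2 cells are γδ thymocytes that carry the Vγ2 chain, sorted without CD4 and CD8 and as high for HSA, the product of Cd24a. DP cells are thymocytes positive for both CD4 and CD8, an intermediate stage of αβ T cells. One array was run per sample. By label there were 4 V2 cKO, 4 V2 WT, 3 DP cKO and 2 DP WT arrays. The Cre line, the strain and the deleted stretch of Sox4 are not given in the sources used here. V2 titles are written in 2 forms, here called V2imm and immV2, with 2 cKO and 2 WT arrays each, and what the forms stand for is not given either. Nothing in the labels ties replicates to different animals. The p-values therefore cover the spread among these arrays alone, and that spread may be technical.

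These genes encode carriers that move amino acids across membranes. The heavy chain CD98, encoded by Slc3a2, pairs with light chains of the Slc7 family and brings them to the cell surface, where each light chain sets which amino acids are exchanged. Slc1a5, Slc38a1 and Slc38a2 encode sodium-dependent carriers of glutamine and other small neutral amino acids, and Slc38a9 encodes a lysosomal arginine carrier and sensor upstream of the kinase complex mTORC1. T cells are known to raise the uptake of leucine and glutamine when they are activated, and cystine uptake feeds the synthesis of glutathione.

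Slc7a11 and Slc7a8, the members with the largest differences in these data, lie on the minus strand of mouse chromosomes 3 and 14. Their promoter windows, from 250 bases before to 50 bases after a RefSeq transcript start (build GRCm38.p6), are shown in full because the results turn on these genes. The Slc7a11 window is chr3:50443564-50443863 and the Slc7a8 window chr14:54781837-54782136, both written 5′ to 3′ along the gene. Capitals mark matches to the motifs named next.
Slc7a11: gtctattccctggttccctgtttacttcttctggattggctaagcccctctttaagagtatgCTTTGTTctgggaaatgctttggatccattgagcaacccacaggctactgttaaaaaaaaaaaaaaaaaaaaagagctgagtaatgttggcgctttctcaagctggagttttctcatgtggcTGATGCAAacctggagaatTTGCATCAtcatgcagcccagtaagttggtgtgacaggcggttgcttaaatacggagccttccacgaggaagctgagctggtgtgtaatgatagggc
Slc7a8: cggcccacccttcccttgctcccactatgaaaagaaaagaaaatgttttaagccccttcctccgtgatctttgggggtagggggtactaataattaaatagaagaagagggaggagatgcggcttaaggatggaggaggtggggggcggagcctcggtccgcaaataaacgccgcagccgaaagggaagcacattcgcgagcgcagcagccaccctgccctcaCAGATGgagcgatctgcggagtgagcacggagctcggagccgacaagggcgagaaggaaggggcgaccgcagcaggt

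Motifs were searched on both strands, with position -1 as the base before the transcript start. The Slc7a11 window held the letters TGATGNAA, a composite element bound by ATF4 and C/EBP factors, on the gene's strand from -66 and on the other strand from -47. It also held a SOX motif, written AACAAAG or AACAATG, on the other strand from -188. The composite element was in 3.97% of 32851 promoter windows and the SOX motif in 9.36%. The Slc7a8 window held 1 match, to the E-box CAGNTG from -27, and an E-box was in 51.4% of all windows. A RefSeq window was matched for 7 of the 10 members, the exceptions being Slc7a5, Slc1a5 and Slc38a1. Of these 7, the composite element was found in Slc7a11 and Slc7a7, the antioxidant response element TGACNNNGC in Slc7a6 and Slc38a2 (12.4% of all windows), the SOX motif in Slc7a11 alone, and an E-box in 5. Overlaps between motifs were not removed, and a match describes letters only. The Slc7a11 window had the lowest GC content of the members' windows, 44.7%, against 58.0% in Slc7a8 and a median of 52.7% over all windows.

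Values are log2 RMA intensities, which were read between arrays for 1 probe set and are not comparable between genes. Over all probe sets, array medians ran from 122.2 to 137.2 on the linear scale. The lower quartile lay between 5.72 and 6.09 in log2 and the upper quartile between 8.38 and 8.74. V2 cKO replicate 4 of the V2imm form had both the highest lower quartile and the lowest upper quartile. The arrays thus did not share 1 distribution, which limits comparison between them. Further on, lower quartiles and shares of dimmer genes are over the 19752 genes measured. Arrays carry no read depth, so their number limits the precision. Summed linear intensity of 7 DP thymocyte markers was 34540 to 39521 in DP arrays and 1708 to 2520 in V2 arrays, and that of 6 measured markers of immature γδ cells (of 9 listed) was 6037 to 14873 in V2 arrays and 692 to 758 in DP arrays. These ranges leave out 2 arrays. The array labelled DP cKO replicate 5 had a DP marker sum of 1554 and a γδ sum of 15367, and the array labelled V2 WT replicate 5 of the immV2 form had 39073 and 714. Both go against their labels, and their values are shown apart. The other 11 arrays (4 V2 cKO, 3 V2 WT, 2 DP cKO and 2 DP WT) carry the results, and values from the fit of all 13 as labelled are given for the genes called. Sox4 itself read 8.07, 9.60, 8.11 and 8.23 in V2 cKO and 8.71, 8.64 and 9.68 in V2 WT, with 8.74 and 8.68 in DP cKO and 9.37 and 8.55 in DP WT. The cKO minus WT difference of Sox4 was -0.51 (SE 0.38) in V2 and -0.25 (SE 0.49) in DP, and neither passed. No source used here places the probe set inside or outside the deletion, so these values are no check of the genotype labels.

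The populations were compared within each genotype. Slc7a11, which encodes xCT, the light chain that imports cystine in exchange for glutamate, was near the array background in V2 cells and bright in DP cells. Its log2 intensity (probe set 10498024) was 5.56, 5.21, 5.38 and 5.22 in V2 cKO and 5.26, 5.15 and 5.28 in V2 WT. In DP cKO it was 9.76 and 9.69, and in DP WT 10.61 and 10.54. All 7 V2 arrays lay below every DP array, and the array groups did not touch. The log2 difference was -4.38 (SE 0.14, adjusted p = 7.2e-10) for V2 cKO minus DP cKO and -5.35 (SE 0.15, adjusted p = 2.9e-10) for V2 WT minus DP WT, by limma with Benjamini-Hochberg adjustment over all genes. Every V2 array placed Slc7a11 below its lower quartile over genes, with 11.7% to 17.1% of genes dimmer. In DP arrays 89.3% to 96.4% of genes were dimmer. The deposited values hold no detection calls, so 20.9-fold in cKO and 40.7-fold in WT cells describe these intensities and not a ratio of transcripts. In bulk samples fewer cells of a type and less RNA per cell cannot be told apart.

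The arrays shown apart followed their population markers for this gene. Slc7a11 read 5.40 in the array labelled DP cKO replicate 5 and 9.96 in the array labelled V2 WT replicate 5 of the immV2 form. Fitted as labelled, the differences were -2.94 (SE 1.12, adjusted p = 0.511) for V2 cKO minus DP cKO and -4.16 (SE 1.27, adjusted p = 0.423) for V2 WT minus DP WT, and the calls were lost.

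**Figure D1:**
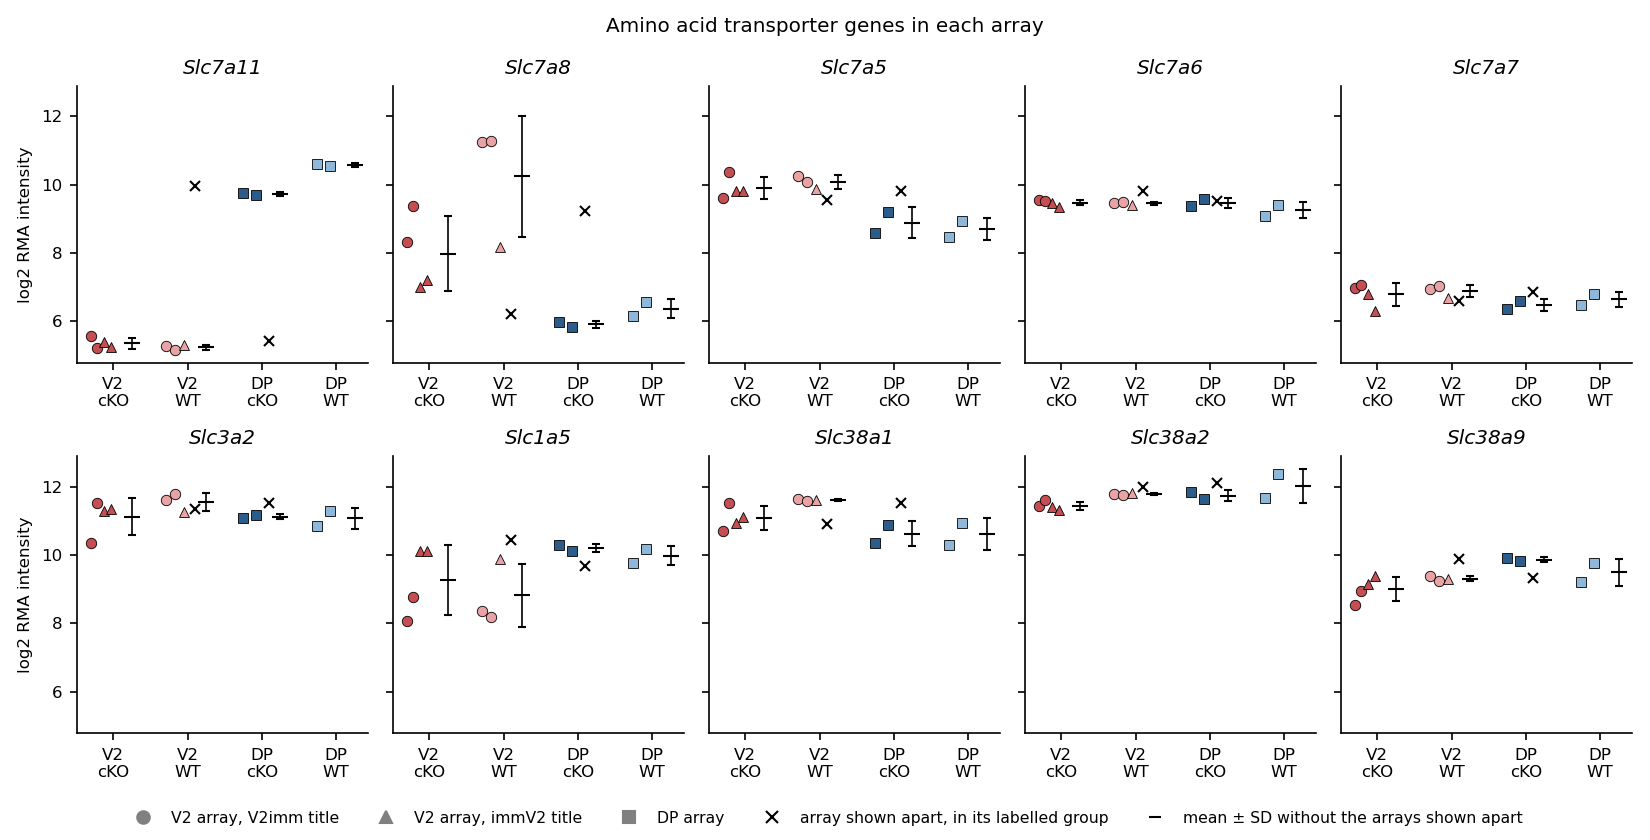
Log2 RMA intensity of the 10 transporter genes in each array, by group; circles are V2 arrays with V2imm titles, triangles V2 arrays with immV2 titles, squares DP arrays, and crosses the 2 arrays shown apart, drawn in their labelled group. Bars give mean ± SD without the crosses; Slc7a11 sits between 5.15 and 5.56 in V2 arrays and between 9.69 and 10.61 in DP arrays.

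Slc7a8 had the opposite order. It encodes LAT2, a light chain that exchanges neutral amino acids, and it was dim in DP cells and higher in V2 cells, with a wide spread within V2. In V2 arrays 50.6% to 98.3% of genes were dimmer, and the immV2 cKO arrays were near the middle, at 50.6% and 54.1%. Its log2 intensity (probe set 10419854) was 8.33, 9.36, 7.0 and 7.21 in V2 cKO and 11.25, 11.29 and 8.18 in V2 WT. In DP cKO it was 5.98 and 5.83, and in DP WT 6.16 and 6.55. Every V2 array exceeded every DP array. The log2 difference was 2.07 (SE 0.31, adjusted p = 0.00126) for V2 cKO minus DP cKO and 3.50 (SE 0.34, adjusted p = 2.6e-05) for V2 WT minus DP WT. These are 4.20-fold and 11.3-fold in intensity. The size depended on the title form, at 2.94 between cKO cells and 4.91 between WT cells with V2imm arrays alone, and 1.20 and 1.82 with immV2 arrays alone (adjusted p = 0.00412 or less in each). In DP arrays 24.4% to 39.4% of genes were dimmer than Slc7a8. Of the 4 DP arrays, 1 placed Slc7a8 below the lower quartile over genes, so the size of the difference is uncertain.

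The array labelled DP cKO replicate 5 read 9.23 for Slc7a8 and the array labelled V2 WT replicate 5 of the immV2 form read 6.22. With all 13 arrays as labelled the Slc7a8 differences were 0.96 (SE 0.78, adjusted p = 0.812) between cKO cells and 2.88 (SE 0.88, adjusted p = 0.425) between WT cells. Without a term for the title form, the difference between cKO cells in the 11 arrays also lost its call (adjusted p = 0.289).

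The other light chains differed less between populations. Slc7a5 encodes LAT1, which carries leucine and other large neutral amino acids. It read 9.59, 10.37, 9.82 and 9.80 in V2 cKO and 10.26, 10.09 and 9.87 in V2 WT, against 8.57 and 9.21 in DP cKO and 8.46 and 8.92 in DP WT. Again every V2 array kept was above every DP array kept. Of the arrays shown apart, the one labelled DP cKO replicate 5 read 9.81. The one labelled V2 WT replicate 5 of the immV2 form, which carried DP markers, read 9.54. That lay above all DP arrays kept and just below the lowest V2 array kept, so Slc7a5 did not follow the markers there. The log2 difference was 1.01 (SE 0.25, adjusted p = 0.0305) between cKO cells and 1.35 (SE 0.26, adjusted p = 0.00799) between WT cells, about 2.01-fold and 2.54-fold. The call between WT cells was lost without DP WT replicate 3 (1.12, adjusted p = 0.131) and with immV2 arrays alone (0.0915). The call between cKO cells held in 11 of 22 alternatives. It was lost without DP cKO replicate 3 (0.69, adjusted p = 0.512), without either V2imm WT array (adjusted p = 0.0568 and 0.0644) and without either immV2 cKO array (0.0848 and 0.0759). It was also lost with V2imm arrays alone (adjusted p = 0.11), immV2 arrays alone (0.0879), median centring (0.0571), no title term (0.0599) and an Xist covariate (0.14). With all 13 arrays as labelled the Slc7a5 differences were 0.70 between cKO cells and 1.25 between WT cells (adjusted p = 0.525 and 0.317).

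Slc7a6 and Slc7a7 encode y+LAT2 and y+LAT1, which exchange cationic for neutral amino acids, and neither was called. Slc7a6 averaged 9.47 ± 0.09 (SD, n = 4) in V2 cKO, 9.45 ± 0.05 (n = 3) in V2 WT, 9.46 ± 0.15 (n = 2) in DP cKO and 9.25 ± 0.23 (n = 2) in DP WT. Its differences were 0.01 (95% interval -0.36 to 0.38) between cKO cells and 0.18 (-0.21 to 0.57) between WT cells. Slc7a7 was dimmer, at 6.78 ± 0.34 in V2 cKO, 6.88 ± 0.18 in V2 WT, 6.47 ± 0.17 in DP cKO and 6.63 ± 0.22 in DP WT, with differences of 0.30 (-0.04 to 0.65) and 0.18 (-0.19 to 0.54).

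Slc3a2, the heavy chain gene shared by all these light chains, did not follow either Slc7a11 or Slc7a8. It read 10.35, 11.54, 11.29 and 11.34 in V2 cKO and 11.62, 11.79 and 11.27 in V2 WT, against 11.07 and 11.18 in DP cKO and 10.85 and 11.30 in DP WT. The groups overlapped, and V2 cKO replicate 4 of the V2imm form was the lowest of all arrays. Differences were 0.00 (95% interval -0.64 to 0.65) between cKO cells and 0.50 (-0.19 to 1.18) between WT cells, with adjusted p = 0.998 and 0.617.

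Of the sodium-dependent carriers Slc1a5, Slc38a1 and Slc38a2, only Slc1a5 was called between populations. It encodes ASCT2, a glutamine carrier. It read 8.08, 8.78, 10.12 and 10.13 in V2 cKO and 8.36, 8.20 and 9.89 in V2 WT, against 10.30 and 10.12 in DP cKO and 9.78 and 10.17 in DP WT. The V2imm arrays were the low ones, and the immV2 arrays lay among the DP arrays. The fitted difference, which weighs both title forms equally, was -0.93 (SE 0.21, adjusted p = 0.0201) between cKO cells and -0.88 (SE 0.23, adjusted p = 0.0426) between WT cells. With V2imm arrays alone it was -1.78 (adjusted p = 0.0041) and -1.70 (adjusted p = 0.00518). With immV2 arrays alone it was -0.08 in both genotypes (adjusted p = 0.843 and 0.886), so the call rests on the V2imm arrays. The call between WT cells also held only without V2imm cKO replicate 4 or 5, and leaving out any other single array gave adjusted p from 0.0665 to 0.257. Between cKO cells it was lost without DP cKO replicate 3 (adjusted p = 0.25) or 4 (0.110) and without immV2 cKO replicate 3 (0.0569) or 4 (0.0529). With all 13 arrays as labelled the difference was -0.75 in both genotypes (adjusted p = 0.384 between cKO cells and 0.465 between WT cells).

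Slc38a1, which encodes SNAT1, read 10.71, 11.54, 10.93 and 11.12 in V2 cKO and 11.65, 11.59 and 11.60 in V2 WT, with 10.36 and 10.89 in DP cKO and 10.28 and 10.95 in DP WT. The V2 WT arrays lay above all DP WT arrays. Its difference was 0.45 (SE 0.26, adjusted p = 0.524) between cKO cells and 0.99 (SE 0.28, adjusted p = 0.0648) between WT cells, and the second passed without DP WT replicate 5 (1.32, adjusted p = 0.0432). It also passed without V2imm cKO replicate 4 (adjusted p = 0.0188) and without V2imm cKO replicate 5 (0.0159). In all, this difference between WT cells passed in 5 of 22 alternatives. Without immV2 WT replicate 3 it was 0.95 (adjusted p = 0.264), and without DP WT replicate 3 it fell to 0.65. Slc38a2, which encodes SNAT2, was among the brightest genes in every array, above at least 98.2% of genes. It read 11.33 to 11.60 in V2 cKO and 11.76 to 11.83 in V2 WT, with 11.64 and 11.85 in DP cKO and 11.68 and 12.38 in DP WT. Its differences of -0.30 (SE 0.20) and -0.24 (SE 0.22) did not pass.

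Slc38a9, the lysosomal arginine sensor gene, was lower in V2 cKO than in DP cKO. It read 8.55, 8.96, 9.16 and 9.38 in V2 cKO, against 9.91 and 9.82 in DP cKO, and these arrays did not overlap (log2 difference -0.86, SE 0.22, adjusted p = 0.0367). In V2 WT it read 9.38, 9.24 and 9.29, against 9.22 and 9.78 in DP WT (-0.15, SE 0.23, adjusted p = 0.933). The call between cKO cells passed in 11 of 22 alternatives. It was lost with the mean of the gene's 2 probe sets (-0.63, adjusted p = 0.0524) and without each of DP cKO replicates 3 and 4 (adjusted p = 0.310 and 0.200), V2imm WT replicates 4 and 5 (0.0582 and 0.0708) and immV2 cKO replicate 3 (0.0967). An Xist covariate (adjusted p = 0.104), no title term (0.0850) and median centring (0.0641) lost the call too. The size depended on the title form, at -1.12 with V2imm arrays alone (adjusted p = 0.0441) and -0.60 with immV2 arrays alone. With all 13 arrays as labelled the difference was -0.68 (adjusted p = 0.421).

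**Figure D2:**
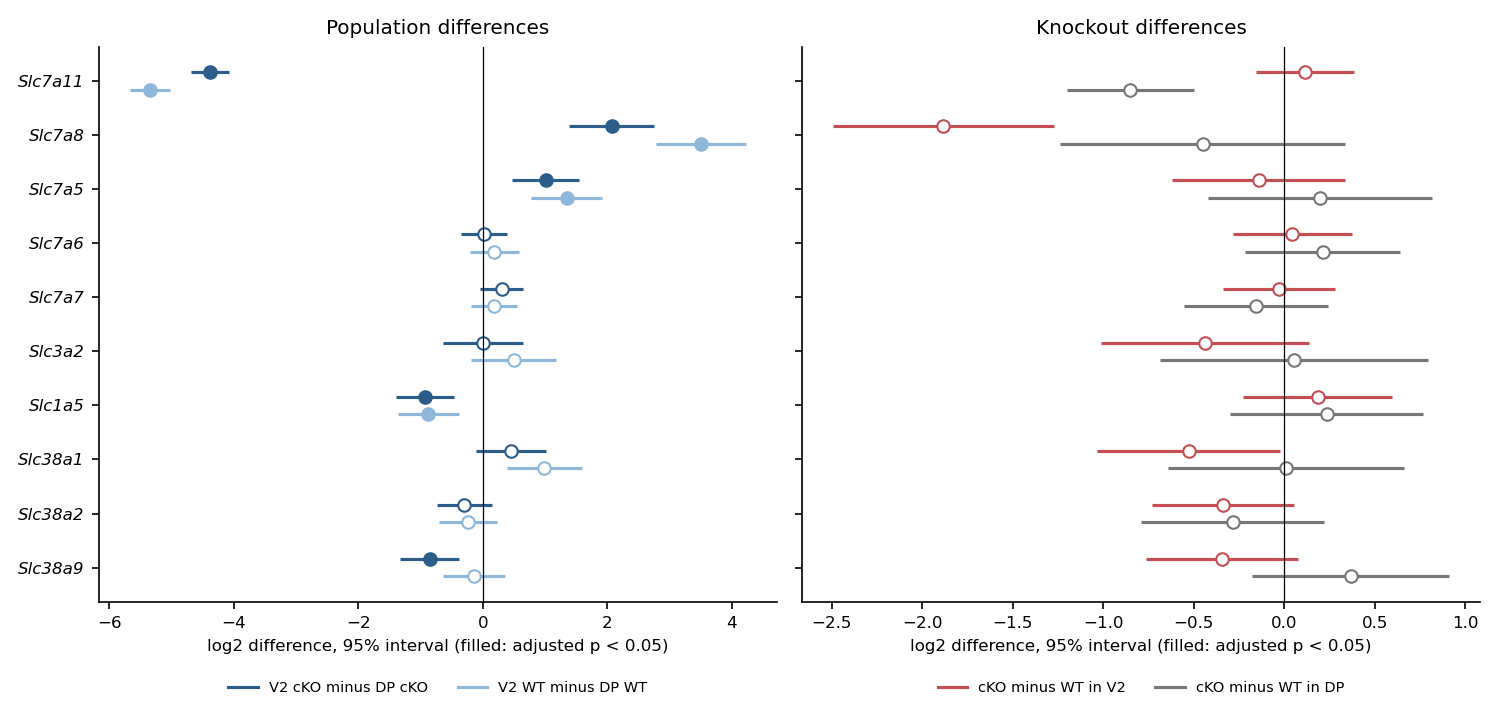
Fitted log2 differences of the 10 transporter genes with 95% intervals in the 11 arrays, V2 minus DP within each genotype on the left and cKO minus WT within each population on the right; filled points have an adjusted p below 0.05. On the left 5 genes are filled between cKO cells and 4 between WT cells, and on the right none is filled.

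Counted together, 5 of 10 members were called between V2 cKO and DP cKO, where 5.45% of all genes were called: Slc7a8 and Slc7a5 were higher and Slc7a11, Slc1a5 and Slc38a9 lower. Between V2 WT and DP WT, 4 of 10 were called, against 4.87% of all genes, with Slc7a8 and Slc7a5 higher and Slc7a11 and Slc1a5 lower. The members were chosen with earlier results of these data known, so these counts describe the chosen genes and are no test of enrichment. The median over the members was 0.01 between cKO cells and 0.18 between WT cells, beside -0.01 and -0.02 over all genes, so the members did not move one way. Arrays of the groups did not overlap for 5 members between cKO cells (21.1% of all genes) and for 4 between WT cells (27.2% of all genes). These comparisons share the estimate of the spread and the title-form term, which is fitted on V2 arrays of both genotypes. With the 13 arrays as labelled no member was called in either, and 7 and 11 genes were called in all (0.0354% and 0.0557%). In that fit 5 members had an unadjusted p below 0.05 in each comparison.

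Knockout and wild-type V2 cells were compared next. No member passed with limma, and no gene of the 19752 did (0% called), with 757 genes and 2 members at an unadjusted p below 0.05. Those members were Slc7a8 and Slc38a1. Slc7a8 had a log2 difference of -1.88 in cKO minus WT (SE 0.28, adjusted p = 0.0572). Within the V2imm form its values were 8.33 and 9.36 in cKO and 11.25 and 11.29 in WT, and within the immV2 form 7.0 and 7.21 in cKO and 8.18 in the single WT array kept. The cKO arrays were below the WT arrays within both forms, while the V2imm cKO arrays were above the immV2 WT array. The difference was -2.43 (adjusted p = 0.0298) with V2imm arrays alone and -1.07 (adjusted p = 0.173) with immV2 arrays alone. It passed without V2imm cKO replicate 5 (adjusted p = 0.0210), immV2 WT replicate 3 (0.0256) or immV2 cKO replicate 4 (0.0402), and did not pass without each of the other 8 arrays. With all 13 as labelled it was -1.26 (SE 0.72, adjusted p = 0.996).

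The summed markers of immature γδ cells were also lower in cKO than in WT arrays within each title form. Their summed intensity was 6037 and 9117 in V2imm cKO against 13238 and 13386 in V2imm WT, and 8807 and 12333 in immV2 cKO against 14873 in immV2 WT. Within each form the cKO array with the smaller sum was also the lower for Slc7a8. Across forms this did not hold, as V2imm cKO replicate 4, with 6037, read 8.33 for Slc7a8, against 7.0 and 7.21 in immV2 cKO. None of the 6 measured markers was called, and 4 of 6 were below WT. The exceptions were Il7r (10.62 and 10.73 in immV2 cKO, 10.22 in WT) and Cd7 (11.18 and 11.47, against 10.94), whose V2imm arrays overlapped between genotypes. Cd24a, the HSA gene of the sort, had a difference of -0.79 in V2 (SE 0.32, adjusted p = 0.999). It read 12.31 and 11.61 in V2imm cKO against 12.21 and 12.02 in V2imm WT, and 10.38 and 9.46 in immV2 cKO against 11.67 in immV2 WT. The part of these shifts in the Slc7a8 difference was not tested.

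Slc38a1 had a difference of -0.53 in V2 (SE 0.23, adjusted p = 0.999), with -0.50 within V2imm and -0.58 within immV2. Slc38a1 and Slc38a2 were the 2 members whose V2 cKO arrays all lay below their V2 WT arrays, where 3.45% of all genes did not overlap in either direction and 1.76% lay lower in cKO. For Slc38a2 the difference was -0.34 (SE 0.18, adjusted p = 0.999). The differences of Slc3a2 (-0.44, SE 0.27) and Slc38a9 (-0.34, SE 0.19) lay in the V2imm arrays, at -0.76 and -0.56, against 0.04 and -0.02 within immV2. For Slc3a2 this came mainly from 1 array, V2imm cKO replicate 4, at 10.35. V2imm cKO replicate 5 read 11.54, beside 11.62 and 11.79 in V2imm WT. Slc7a11 in V2 differed by 0.11 (95% interval -0.16 to 0.39), at levels near background. The remaining 4 members were between -0.14 and 0.18.

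In DP cells no member passed between cKO and WT with limma, where 5 genes of all were called (0.0253%) and 535 genes and 1 member had an unadjusted p below 0.05. That member was Slc7a11. Its arrays read 9.76 and 9.69 in DP cKO against 10.61 and 10.54 in DP WT, without overlap, which is 1.80-fold lower (log2 difference -0.85, SE 0.16, adjusted p = 0.181). The gap between the groups was larger than the spread within either, at SD 0.05 each, with 2 arrays a group. Without V2imm cKO replicate 4, which enters only through the shared spread, the adjusted p was 0.0488. Slc7a11 in the array labelled DP cKO replicate 5 was at the V2 level, and with it the difference was -2.29 (SE 1.34). Cd24a, the HSA gene, read 10.89 and 10.93 in DP cKO against 11.97 and 12.27 in DP WT (-1.21, SE 0.41, unadjusted p = 0.0117). It was not called after adjustment either. The summed DP markers overlapped, at 35409 and 39521 in cKO and 34540 and 38701 in WT. Whether the maturity of the sorted cells had a part was not tested.

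The other members were closer between genotypes in DP. Slc7a8 differed by -0.45 (95% interval -1.24 to 0.34) and Slc38a9 by 0.37 (-0.18 to 0.91). Their arrays did not overlap either, but 29.8% of all genes did not overlap with 2 arrays a group. The differences of the remaining 7 members were between -0.29 and 0.24.

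The cKO effect in V2 was set against that in DP as an interaction. No member and no gene passed with limma (0% called), with 372 genes and 3 members at an unadjusted p below 0.05. Slc7a11 had an interaction of 0.97 (SE 0.20, unadjusted p = 0.00042, adjusted p = 0.577), from 0.11 in V2 and -0.85 in DP. For Slc7a8 it was -1.43 (SE 0.46, unadjusted p = 0.00834) and for Slc38a9 -0.71 (SE 0.32, unadjusted p = 0.0437), both with adjusted p near 1. A different knockout effect in the populations was therefore not shown for any member.

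The V2imm and immV2 arrays differed in transporter levels within the same labelled population. Slc7a8 was higher in V2imm (10.06 ± 1.46, SD, n = 4) than in immV2 arrays (7.46 ± 0.63, n = 3), with a log2 difference of 2.28 after the genotype (SE 0.28, adjusted p = 0.000826). Slc1a5 was lower, at 8.35 ± 0.31 in V2imm and 10.05 ± 0.13 in immV2 (log2 difference -1.66, SE 0.19, adjusted p = 0.000448). Its V2imm arrays read 8.08, 8.78, 8.36 and 8.20, and its immV2 arrays 10.12, 10.13 and 9.89, so the forms did not overlap. These 2 of 10 members were called, against 2.50% of all genes (1.10% higher and 1.40% lower), and here too the count is no test of enrichment. Slc7a7, at 7.0 ± 0.05 in V2imm and 6.59 ± 0.26 in immV2, did not pass (0.40, SE 0.14, adjusted p = 0.185). Slc7a11 differed by 0.02 and Slc3a2 by -0.05. With the 13 arrays as labelled the Slc1a5 difference was -1.79 (adjusted p = 0.000583) and that of Slc7a8 2.90 (adjusted p = 0.0702), beside 1.56% of all genes called.

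Other transcripts moved with the title form. Asns, which encodes asparagine synthetase, was at 7.77 ± 0.32 in V2imm and 5.72 ± 0.25 in immV2 (log2 difference 2.01, SE 0.16, adjusted p = 3.0e-05). The fitted difference was above 0 for all 16 macrophage and dendritic cell markers, though single arrays overlapped for some. Of the 16, 5 were called higher, beside 1.10% of all genes, with the smallest p for Cd74, C1qb, Lyz2 and H2-Aa. The summed intensity of the 16 was 2000 and 6642 in V2imm cKO and 3312 and 3530 in V2imm WT. In immV2 arrays it was 1223 and 1622 in cKO and 1205 in WT. Between 1 and 2 of the 16 lay below the lower quartile in V2imm arrays and between 2 and 5 in immV2 arrays. Markers of other cell types also lay mostly above 0, with none called higher. These were 7 of 7 for granulocytes, 3 of 3 for erythroid cells, 8 of 10 for epithelium and stroma and 3 of 4 for B cells. The median was 0.53 over the 16 markers, 0.35 over the granulocyte markers and 0.08 over all genes. Within V2imm, Cd74 read 8.19 and 10.98 in cKO and 10.23 and 9.93 in WT, beside Slc7a8 at 8.33 and 9.36 in cKO and 11.25 and 11.29 in WT. The cKO array lowest for Cd74 was also lowest for Slc7a8, and the one brightest for Cd74 was below both WT arrays for Slc7a8. Cd24a was also higher in V2imm (1.40, SE 0.32, adjusted p = 0.038). The part of other cell types or of sorting in the transporter differences was not tested, and title form and any processing batch cannot be told apart.

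**Figure D3:**
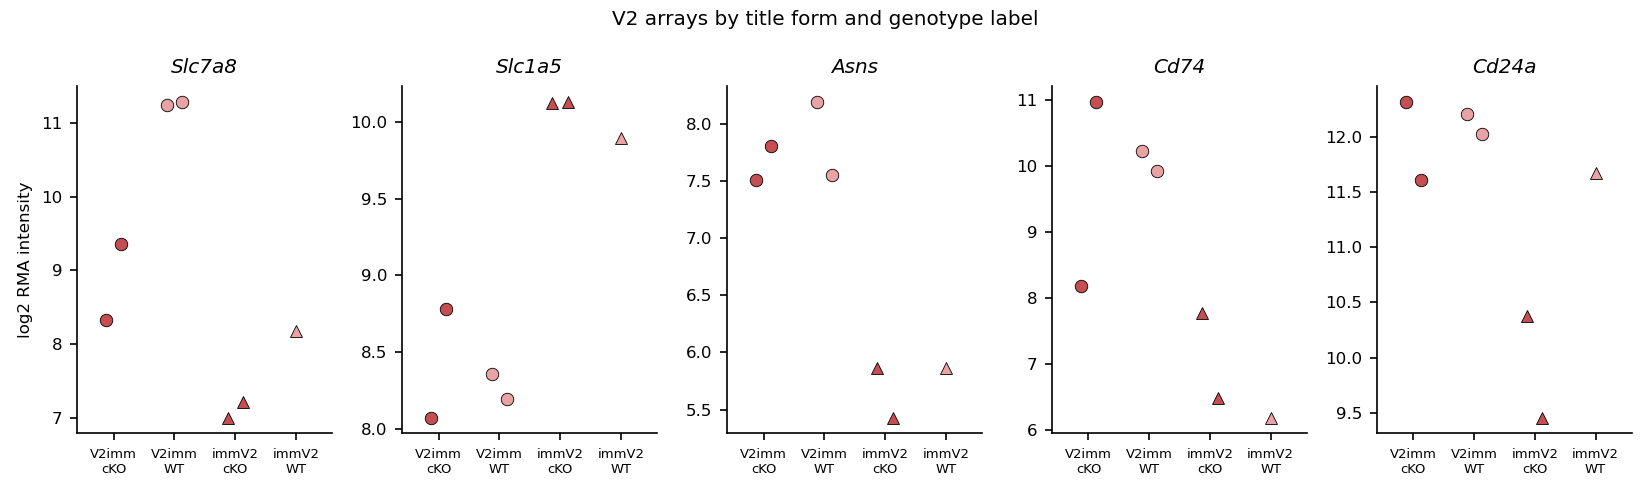
Log2 RMA intensity in the 7 V2 arrays kept, by title form and genotype, for Slc7a8, Slc1a5, the asparagine synthetase gene Asns, the antigen presentation gene Cd74 and the HSA gene Cd24a; each panel has its own vertical axis, which does not start at 0. Slc7a8, Asns and Cd74 are brighter in V2imm and Slc1a5 is dimmer.

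Related genes were read from 4 lists, of other amino acid transporters (45 of 45 measured), glutathione and cysteine use (20 of 21), the amino acid response of ATF4 (21 of 22) and amino acid sensing at the lysosome (32 of 33). Together, 7 of 118 measured entries (Chac1 and Sesn2 stand on more than 1 list) were higher and 4 lower between V2 cKO and DP cKO, with 3 higher and 3 lower between V2 WT and DP WT. Those counts stand beside 3.50% higher and 1.94% lower, and 3.20% higher and 1.67% lower, over all genes. The lists were also chosen with earlier results of these data known. List medians lay between -0.02 and 0.11 between cKO cells and between -0.09 and 0.01 between WT cells.

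Of the other transporters, Slc6a19, known as a neutral amino acid carrier of kidney and gut, was lower in V2. It averaged 6.09 ± 0.44 in V2 cKO and 5.95 ± 0.23 in V2 WT, against 9.83 ± 1.10 in DP cKO and 8.79 ± 0.76 in DP WT. The log2 difference was -3.75 (SE 0.36, adjusted p = 2.7e-05) between cKO cells and -2.75 (SE 0.39, adjusted p = 0.000706) between WT cells. Slc43a1, which encodes the neutral amino acid carrier LAT3, was also lower in V2 (-1.45 and -1.35). In cKO cells alone Slc38a6 passed as lower (-0.80, adjusted p = 0.00249) and the aromatic amino acid carrier gene Slc16a10 as higher (1.09, adjusted p = 0.0446), with -0.52 and 1.13 between WT cells (adjusted p = 0.0603 and 0.0545). Whether these effects differed by genotype was not called by the interaction.

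No gene of glutathione and cysteine use was called between populations, although Slc7a11, which feeds that pathway with cystine, was. Of the ATF4 list, Asns was called as higher in V2 in both genotypes (1.18, SE 0.18 between cKO cells and 1.41, SE 0.19 between WT cells). Its V2imm arrays read 7.51 to 8.20, while its immV2 arrays, at 5.43 to 5.87, overlapped the DP arrays at 5.38 to 5.57, so the Asns call describes the V2imm arrays. Mthfd2, a mitochondrial folate enzyme gene, was higher between cKO cells (1.03, adjusted p = 0.0441). Between WT cells it was not called, with means of 9.53 in V2 WT and 9.01 in DP WT. Among lysosomal sensing genes, Rragd, which encodes a Rag GTPase, was lower in V2 (-1.40 and -1.95). Sesn3, of the sestrin family, was higher (1.32 and 1.55), as was Castor2, of the family of the cytosolic arginine sensor Castor1 (0.79 and 1.26). Castor1 (1.20) and the Ragulator subunit gene Lamtor4 (0.93) passed between cKO cells. Neither was called between WT cells, where V2 means were also above DP means, at 6.63 and 6.11 for Castor1 and 10.69 and 10.15 for Lamtor4.

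In the knockout comparisons no gene of the 4 lists was called in either population. The smallest p in V2 belonged to Castor2, with a log2 difference of -1.05 in cKO minus WT (SE 0.18, adjusted p = 0.0881). It read 8.42, 9.02, 8.95 and 8.57 in V2 cKO and 9.89, 9.70 and 9.77 in V2 WT, without overlap. Castor1 in V2 had 0.71 (SE 0.19, adjusted p = 0.486), and Bach1, a repressor of antioxidant genes, had -0.73 (SE 0.23, adjusted p = 0.868). In DP the smallest p of these lists was that of Slc38a6 (0.53, SE 0.15, adjusted p = 0.938).

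**Figure D4:**
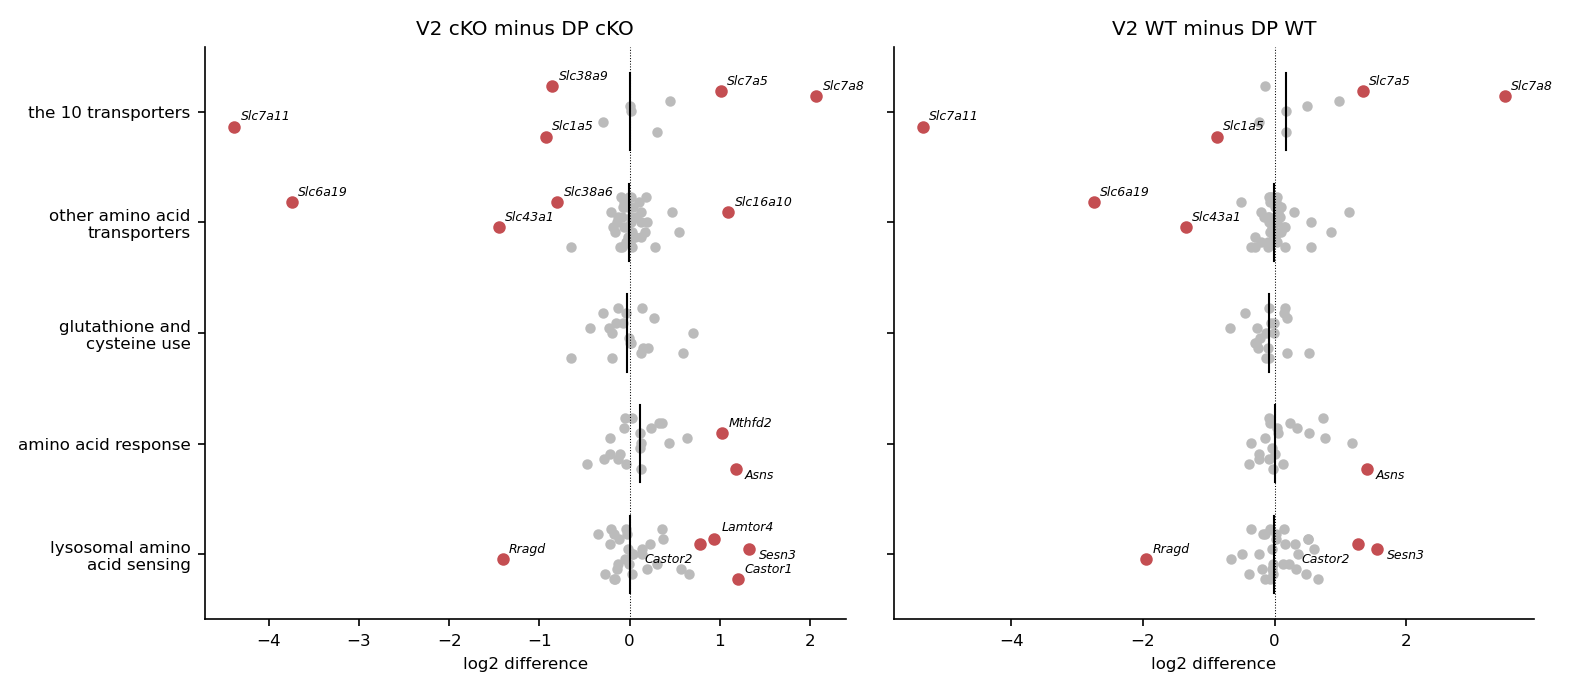
Fitted log2 differences, V2 minus DP, for the 10 transporters and 4 lists of related genes, with cKO cells on the left and WT cells on the right; red points have an adjusted p below 0.05 and are named, and black bars mark list medians. In the glutathione and cysteine list no point is red.

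Genes with the most similar pattern were found by Pearson correlation of log2 intensity over the 11 arrays, among 5252 genes whose arrays span at least 1 log2 unit, leaving out members, Y-linked genes, Xist and receptor V segments. For Slc7a11 these were Iftap (r = 0.993), Nsg2 (0.992), Rag1 (0.992), Cd8a (0.991) and Tdrd5 (0.991). They separate V2 from DP arrays as well, as Rag1, the recombinase gene, did at 6.67 to 7.15 in V2 and 12.90 to 13.04 in DP. For Slc7a8 they were Fgfr1 (0.992), Acy3 (0.977), Ptpn13 (0.977), Gpr83 (0.972) and Rxfp1 (0.969). Fgfr1, a growth factor receptor gene, spanned 7.43 to 8.87 in V2 and 7.21 to 7.38 in DP. These arrays share their populations, title forms and genotypes, so the correlations describe group differences.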

How the data were processed

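RNA of sorted thymocytes was labelled and hybridised to Affymetrix arrays, 1 array per sample and 13 in all, per the labels' protocols. The deposited table holds a linear intensity per probe set. The submitters' processing notes name RMA and Affymetrix Power Tools, without a version. RMA corrects background, normalises arrays to each other and summarises probes. The highest correlation between any 2 arrays was 0.994, and at most 1.93% of probe sets had equal values in 2 arrays.

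The log2 of each intensity was taken. Of 24922 probe sets, 21425 had 1 gene symbol, 1399 several and 2098 were not named in the platform table. RefSeq genes were found by gene ID for 21347 of them, and 0 symbols needed an update. The brightest single-symbol probe set stood for each of 921 genes with several, which left 19752. Slc38a1 and Slc38a9 had 2 probe sets each.

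A linear model in limma 3.58.1 (R 4.3.3), moderated with a trend on intensity, fitted 4 group means and a term for V2 title form over 11 arrays, leaving out the 2 shown apart. Two-sided p-values were adjusted over all genes by Benjamini-Hochberg, with a threshold of 0.05. V2imm titles name no gene for the knockout, which was read as Sox4. Named were all members, up to 4 genes per list and comparison with the smallest p among those called (2 where none was), with their values in the matching comparison of the other genotype, and the 5 genes most like Slc7a11 and Slc7a8. The comparison of title forms was added after seeing the data. The members, lists and the arrays shown apart were chosen with earlier results of these data known. The fit was also run on data simulated with its own variances and independent noise. Such data hold no mislabelled arrays or unequal array distributions, so that run says nothing about those. Alternatives covered arrays, normalisation, title form, replicate block, moderation, filter, probe sets, an Xist covariate and each array left out. Python 3.11.15 with matplotlib 3.10.9 drew the figures.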

Additional observations from a re-analysis of the deposited data

Results flagged for a closer look

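For each transporter, the 2 groups with 4 arrays by label were examined for a single array far from the rest. This made 20 groups of values, and 2 stood out. Chance would flag about 1 in 20 independent groups, but these groups share the same arrays, so the count is not set against that rate. In the 4 arrays labelled V2 WT, replicate 5 of the immV2 form stood apart for Slc7a11, at 9.96 against 5.15 to 5.28, and for Slc38a1, at 10.92 against 11.59 to 11.65. This is 1 of the 2 arrays whose population markers go against their labels. Slc7a11 differs between the populations, so its flag is no evidence apart from those markers.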

How the results depend on the processing

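Beyond the array-by-array values given above, the calls between populations depended on which arrays entered. Between V2 WT and DP WT, 962 genes and 4 members were called, and 11 genes and 0 members with 13 arrays as labelled, 594 genes without the title term, 2 members with immV2 arrays alone, and 477 to 1575 genes and 2 to 5 members with each array left out. The lowest gene count was without DP WT replicate 3 and the highest without V2imm cKO replicate 4. Between V2 cKO and DP cKO, 1076 genes and 5 members were called, with 7 and 0 as labelled, 637 and 1 without the title term, 683 and 2 with an Xist covariate, 3 members after median centring, 2 with immV2 arrays alone, and 480 to 1632 genes and 2 to 5 members with each array left out.

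Between V2 cKO and V2 WT, 0 genes and 0 members were called, against 13 genes after quantile normalisation, 6 with robust moderation, 8 after a filter on low values and 6 with V2imm arrays alone, each with 1 member, Slc7a8. Leaving out single arrays gave 0 to 44 genes and 0 to 1 member, with 44 without V2imm cKO replicate 5. Between DP cKO and DP WT, 5 genes were called, 0 as labelled, with an Xist covariate, with DP arrays alone or with immV2 arrays alone among the V2 arrays, 9 after quantile normalisation, 3 without the title term, and 0 to 14 genes and 0 to 1 member with each array left out. The interaction gave 0 genes, or 0 to 4 with each array left out. The comparison of title forms gave 494 genes and 2 members, 309 and 1 as labelled, 60 genes with an Xist covariate, and 207 to 4358 genes with each array left out, the last without V2imm cKO replicate 5.

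Deviations of same-numbered arrays from their group means correlated at 0.27 (V2imm 4), -0.11 (V2imm 5), 0.52 (immV2 3) and 0.18 (DP 3). Residuals of the fit with the title term correlated at -0.35, -0.22, -0.50 and 0.18, in the same order. These values do not settle whether the numbers mark pairs, and the main fit did not use them as pairs. With the replicate block 34 genes and 1 member (Slc7a8, -2.01, adjusted p = 2.9e-05) were called in V2, 8 genes in DP and 4 in the interaction, with 2 residual degrees of freedom. The causes of these changes were not tested. No member difference with an unadjusted p below 0.05 changed sign in any alternative.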
